A study of Homo sapiens with 6 samples.

Results

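The MYC, MAX and MXD network is a small family of transcription factors, and 10 of its genes were followed here through a knockdown of GRB2, an adaptor protein that links receptor tyrosine kinases to RAS signalling. The members were taken by symbol and were MYC, MYCL, MAX, MXD1, MXI1, MXD3, MXD4, MNT, MGA and MLX. All 10 were found among the 30327 genes of the count table, and all 10 were among the 15801 genes with enough reads to test. The cells were SK-BR-3, an established line of a HER2-overexpressing breast cancer. Of the 6 libraries, 3 were made after transfection of a nontargeting siRNA (the control, si_NC) and 3 after transfection of an siRNA against GRB2 (si_GRB2). The methods print the sequence of a single siRNA against GRB2, but a supplement lists RNA from cells given several, and the labels do not say which one these libraries received. In the labels, the treated libraries carry titles of GRB2 overexpression but descriptions of si_GRB2, and the groups used here follow the descriptions.

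GRB2 itself had 124, 130 and 126 CPM (read counts scaled to a common library size) with si_NC. With si_GRB2 it had 27.8, 28.1 and 29.6 CPM, which is a fall and not a rise. Each library held between 24810378 and 28532480 counted reads. Mitochondrially encoded genes took 8.66% to 9.02% of the reads in si_NC and 7.59% to 7.80% in si_GRB2. The SK-BR-3 markers ERBB2, GRB7, KRT8, KRT18, EPCAM and TFAP2C were all abundant, with summed levels of 14210 to 14394 CPM in si_NC and 11824 to 12272 CPM in si_GRB2, and 4 of the 6 were lower and 1 higher in si_GRB2. The 9 markers of leukocytes, endothelium and fibroblasts summed to at most 10.4 CPM in any library, 1 of the 4 with enough reads was lower in si_GRB2 (ACTA2) and none was at 0 in every library. The part of these differences in the results below was not tested. In bulk RNA, fewer cells of a kind and less RNA per cell cannot be told apart, and nothing in the labels says whether the 3 libraries of a group were separate cultures, so the p-values measure the spread between these libraries.

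Proteins of this network bind DNA as pairs, through a basic helix-loop-helix leucine zipper, at a short site called the E-box. MAX is the shared partner. MYC paired with MAX activates transcription of genes for growth, whereas MXD1, MXI1, MXD3, MXD4 and MNT compete with MYC for MAX and recruit a SIN3 and histone deacetylase complex that represses the same sites. MGA also pairs with MAX, within a Polycomb complex, and MLX is a second hub that pairs with MXD1, MXD4, MNT and the glucose-sensing factors MLXIP (MondoA) and MLXIPL (ChREBP). MYC is a well-known oncogene in breast cancer, and its transcription and protein stability respond to signalling from receptor tyrosine kinases through RAS and ERK.

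The E-box bound by these proteins, CACGTG, reads the same on either strand, and it is shown here because several of the network's own genes carry it close to their starts. RefSeq promoters (build GRCh38.p14, 250 bases before to 50 bases after the start of a transcript) were matched by symbol for 9 of the 10 members, all but MYC, in 14 windows. The motif was present in 3 of the 14 windows, those of MXD4, MNT and MLX. Among all 35116 promoter windows of this length, 7.26% held it. The stretches around these sites are given with the E-box in capitals, with distances from the RefSeq transcript start, which can differ from the GENCODE gene start.
MXD4 (chr4:2262330-2262359, minus strand, motif starting 238 bases before the RefSeq start): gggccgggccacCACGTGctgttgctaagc
MNT (chr17:2401236-2401265, minus strand, motif starting 193 bases before the RefSeq start): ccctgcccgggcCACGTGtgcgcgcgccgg
MLX (chr17:42567038-42567067, plus strand, motif starting 50 bases before the RefSeq start): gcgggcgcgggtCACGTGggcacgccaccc
A match describes the letters of the window only, and no binding was measured in these libraries.

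Across the network, the changes were small. Of the 10 members, 3 were lower in si_GRB2 (MYC, MXD1 and MLX), 0 were higher and 7 did not pass the test, at an adjusted p under 0.05 in edgeR's quasi-likelihood test. Among all 15801 genes tested, 30.6% passed the same test, 15.2% as higher and 15.5% as lower, so the share of members called was close to that of all genes. Scaling by library totals alone made 66.5% of all calls higher, against 49.5% with TMM factors, and limma on log2(FPKM + 1) made 61.7% of them higher. A stricter call, for differentially expressed genes, asked for a change of more than 1.5-fold in either direction with an adjusted p under 0.01, and 2.52% of all genes met it, 0.829% as higher and 1.69% as lower. None of the 10 members did (0 of 10 by edgeR and 0 of 9 by DESeq2), since the largest change in size was a log2 fold change of −0.36. At an unadjusted p under 0.05, 4 members were lower and 2 higher by edgeR, and 3 were lower and 0 higher by DESeq2. The share of all genes at this looser limit is not given here, so these counts cannot be read as a result about the members. The median log2 fold change of the members was −0.07, and that of all genes tested was 0.0019.

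**Figure D1:**
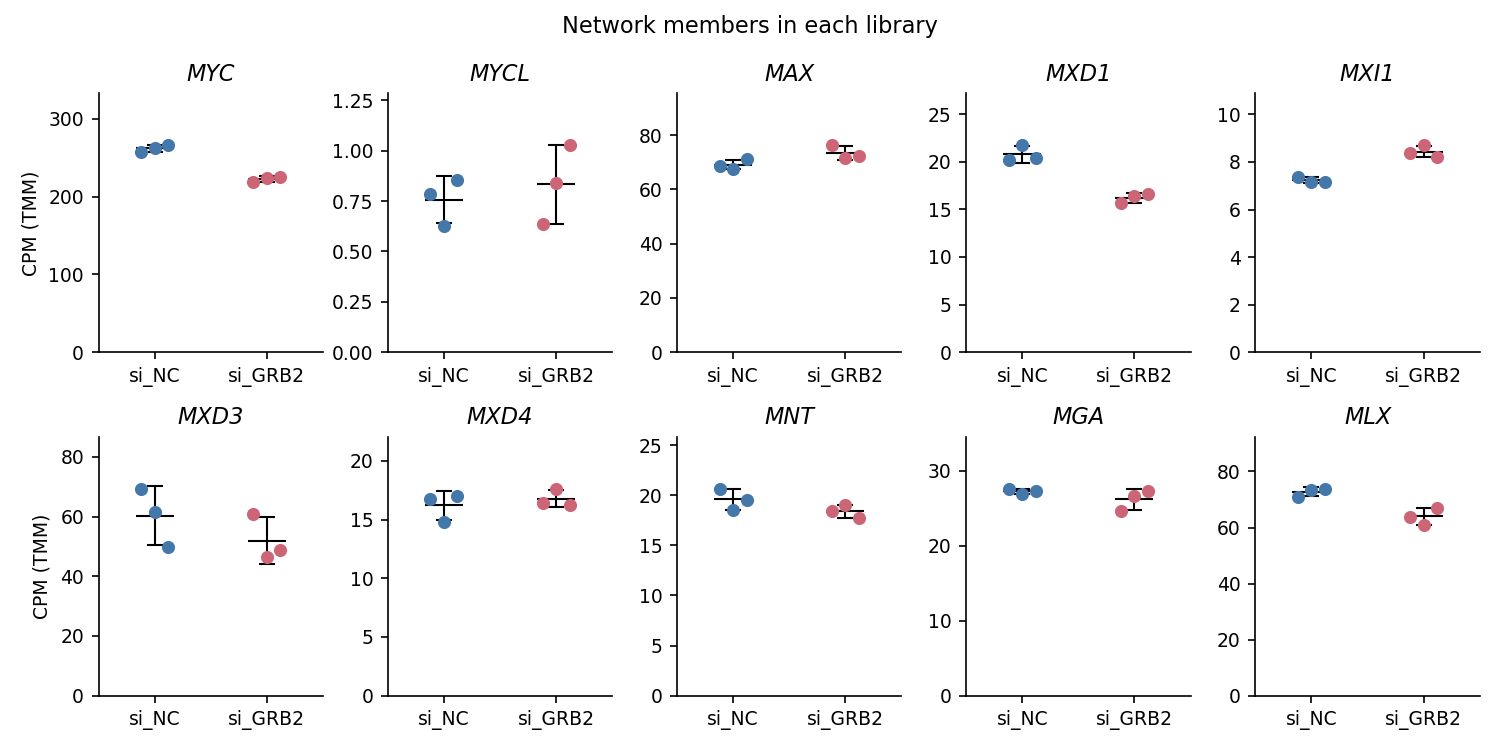
Level of each of the 10 members in the 3 si_NC libraries (blue) and the 3 si_GRB2 libraries (red), in CPM with TMM factors on linear axes that start at 0. Points are libraries, and the black bar and whiskers are the mean and SD. The groups of MYC, MXD1 and MLX are separate with si_GRB2 lower, those of MAX and MXI1 are separate with si_GRB2 higher, and those of the other 5 members overlap. Among all genes tested, 42.3% had separate groups, 21.2% with si_GRB2 lower and 21.1% with si_GRB2 higher.

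MYC, the central activator, was the most abundant member and fell slightly. It lies on the plus strand of chromosome 8 of GRCh38 from 127735434 to 127742951 (GENCODE 44). The si_NC libraries had 257, 263 and 266 CPM of MYC, and the si_GRB2 libraries had 219, 224 and 225 CPM. Every si_GRB2 library was thus below every si_NC library, with a spread inside each group that was small against the gap, a pattern without overlap that 42.3% of all genes tested also showed in either direction and 21.2% as lower. MYC fell by 15.1%, a log2 fold change of −0.24 with a standard error (SE) of 0.03 and a 95% interval from −0.29 to −0.18 (edgeR adjusted p = 7.71e-06). In size, this change exceeded that of 70.1% of all genes tested. With each library left out in turn it ranged from −0.26 to −0.22, and it passed the test under all 16 alternatives. The antisense gene CASC11 shares part of the exons of MYC, but its reads came to 0.485% of those of MYC.

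MYCL, a paralog of MYC known from small cell lung cancer, was hardly expressed. Its 127 reads over the 6 libraries gave 0.784, 0.628 and 0.856 CPM in si_NC and 0.636, 0.838 and 1.03 CPM in si_GRB2, and the groups overlapped. The log2 fold change of 0.14 had a 95% interval from −0.46 to 0.73 (edgeR adjusted p = 0.772), and a 1.5-fold rise lies inside it. Its sign was negative, at −0.036, without si_GRB2 replicate 3. MYCN, the other paralog, had between 5 and 14 reads in a library and was not tested.

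MAX, the common partner, did not pass the test. It had 68.7, 67.6 and 71.1 CPM in si_NC and 76.3, 71.4 and 72.4 CPM in si_GRB2. The highest si_NC library lay just under the lowest si_GRB2 library. The log2 fold change was 0.09 with an SE of 0.04 and a 95% interval from 0.0024 to 0.17 (edgeR adjusted p = 0.116). Scaling by library totals alone raised it to 0.14 and passed it (edgeR adjusted p = 0.0142). FNTB lies on the opposite strand across the exons of MAX, with reads equal to 27.5% of those of MAX and a log2 fold change of −0.12 (edgeR adjusted p = 0.147). CHURC1-FNTB, also on the opposite strand, shares 623 exonic bases with MAX and has reads equal to 21.3% of those of MAX. Its log2 fold change was −0.02 (edgeR adjusted p = 0.840). Since the sources do not state whether reads were counted by strand, the share of these genes in the value of MAX was not tested.

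**Figure D2:**
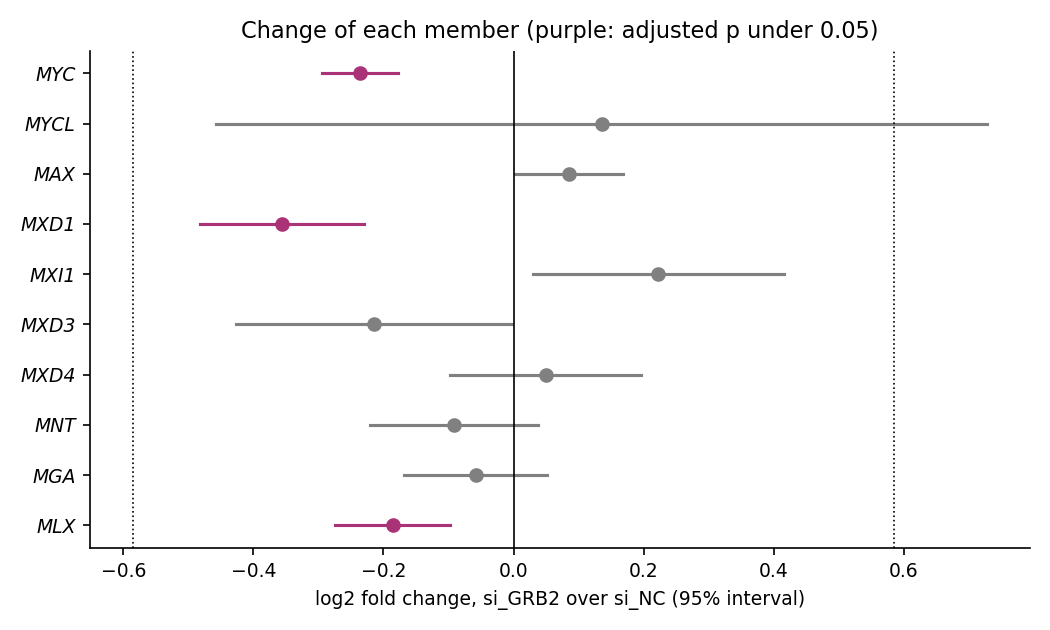
Log2 fold change of each member, si_GRB2 over si_NC, from edgeR, with its 95% interval as a horizontal line. Dotted lines mark a fold change of 1.5 in either direction. MYC, MXD1 and MLX (purple) passed an adjusted p under 0.05, the points of all 10 members lie inside the dotted lines, and the interval of MYCL is the widest.

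Among the MXD repressors, MXD1 fell and the others did not pass the test. MXD1, a repressor that rises when many cell types stop dividing and mature, is on the plus strand of chromosome 2 from 69897688 to 69942945. Its levels were 20.1, 21.7 and 20.4 CPM in si_NC and 15.6, 16.4 and 16.6 CPM in si_GRB2. The groups did not overlap, and MXD1 fell by 21.9%, the largest change among the members in either direction. The log2 fold change was −0.36 with an SE of 0.06 and a 95% interval from −0.48 to −0.23 (edgeR adjusted p = 0.000251). Over the fits that each left out a library it ranged from −0.39 to −0.33. SNRNP27, a splicing factor gene on the same strand, shares 237 exonic bases with MXD1, has reads equal to 151% of its reads and fell as well, by 0.22 on the log2 scale (edgeR adjusted p = 0.00685), and the part of shared reads in the value of MXD1 was not tested.

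MXI1 is the MXD2 of the family and is also induced by hypoxia in many cells. It had 7.38, 7.14 and 7.17 CPM in si_NC and 8.38, 8.70 and 8.22 CPM in si_GRB2. All 3 si_GRB2 libraries were above the si_NC libraries, yet with 1248 reads in all the log2 fold change of 0.22 had a 95% interval from 0.03 to 0.42 and missed the threshold (edgeR adjusted p = 0.0776). Its adjusted p ran from 0.0307 with library totals alone to 0.235 with DESeq2.

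MXD3, the member of the family linked to dividing cells, was the most variable member with many reads. The si_NC libraries had 69.3, 61.6 and 49.8 CPM and the si_GRB2 libraries 60.8, 46.3 and 48.9 CPM. Replicate 1 was the highest library in each group, and the groups overlapped widely. The log2 fold change was −0.21 with an SE of 0.10 and a 95% interval from −0.43 to −0.0023 (edgeR adjusted p = 0.123). MXD3 passed the test without si_NC replicate 3 (log2 fold change −0.34, edgeR adjusted p = 0.00236) and without si_GRB2 replicate 1 (−0.34, edgeR adjusted p = 0.0206), and its value shrank to −0.11 without si_NC replicate 1. At nearly the same fold it also passed with no filter on low counts (−0.22, edgeR adjusted p = 1.44e-05) and with a block on replicate number (−0.21, edgeR adjusted p = 0.00146). MXD3 lies among close neighbours on chromosome 5. RAB24 shares 926 exonic bases with it on the same strand and rose by 0.25 on the log2 scale (edgeR adjusted p = 0.0033). PRELID1, on the opposite strand, shares 1148 exonic bases, has reads equal to 552% of those of MXD3 and had a log2 fold change of −0.18 (edgeR adjusted p = 0.000159). The part of these neighbours in the value of MXD3 was not tested.

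MXD4 and MNT are the repressors found in most resting and dividing cells, and neither passed the test. MXD4 had 16.7, 14.8 and 17.0 CPM in si_NC and 16.4, 17.6 and 16.3 CPM in si_GRB2, with a log2 fold change of 0.05 and a 95% interval from −0.10 to 0.20 (edgeR adjusted p = 0.654). Without si_NC replicate 2 its sign turned, at −0.015. MNT, the broadly expressed antagonist of MYC, had 20.6, 18.6 and 19.5 CPM in si_NC and 18.4, 19.0 and 17.7 CPM in si_GRB2, with a log2 fold change of −0.09 and a 95% interval from −0.22 to 0.04 (edgeR adjusted p = 0.292). The groups of either gene overlapped, and a 1.5-fold change in either direction lies outside both intervals.

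MGA, the giant of the network, carries a T-box DNA-binding domain besides its helix-loop-helix zipper. It had 27.6, 27.0 and 27.3 CPM in si_NC and 24.6, 26.7 and 27.3 CPM in si_GRB2. The si_GRB2 libraries reached from below the si_NC range into it, and the log2 fold change of −0.06 had a 95% interval from −0.17 to 0.05 (edgeR adjusted p = 0.453).

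MLX, the parallel hub, is on the plus strand of chromosome 17 from 42567072 to 42573239 and carries the E-box printed above. It had 70.8, 73.4 and 73.8 CPM in si_NC and 63.9, 60.8 and 67.1 CPM in si_GRB2. The groups did not overlap in CPM, and MLX fell by 12.1%, a log2 fold change of −0.19 with an SE of 0.04 and a 95% interval from −0.27 to −0.10 (edgeR adjusted p = 0.00268). In the authors' FPKM the groups overlapped, with 12.97, 13.72 and 14.5 FPKM in si_NC and 12.04, 12.09 and 13.18 FPKM in si_GRB2, and limma on log2(FPKM + 1) did not pass the gene (log2 fold change −0.13, adjusted p = 0.135). PSMC3IP overlaps MLX on the opposite strand, with reads equal to 24.1% of those of MLX and a log2 fold change of −0.03 (edgeR adjusted p = 0.806). MLXP1, a pseudogene of MLX, had 9 reads in all.

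Levels of different genes were compared per length, as FPKM (fragments scaled for gene length and library size). In si_NC, MYC was highest with a mean level of 46.0 ± 2.41 FPKM (SD, n = 3), and it was followed by MLX with 13.7 ± 0.765, MXD3 with 9.35 ± 1.21 and MAX with 8.88 ± 0.532 FPKM (SD, n = 3 each). The remaining repressors lay lower, MXD1 with 2.63, MXD4 with 1.90, MNT with 1.81, MGA with 1.12 and MXI1 with 0.98 FPKM, and MYCL was last with 0.12 FPKM. Neighbours in this order whose libraries overlapped were MXD3 with MAX and MXD4 with MNT. In si_GRB2, MYC (40.2 ± 1.71 FPKM, SD, n = 3) and MLX (12.4 ± 0.644 FPKM, SD, n = 3) again came first. There MAX (9.70 ± 0.0643 FPKM) stood above all MXD3 libraries (8.33 ± 0.987 FPKM, SD, n = 3 each), and MXD1 (2.11 FPKM) overlapped MXD4 (2.02 FPKM) and MXI1 (1.18 FPKM) overlapped MGA (1.11 FPKM). MYC alone made up 51.98% to 54.2% of the summed FPKM of the 10 members in si_NC and 49.5% to 52.05% in si_GRB2, and these ranges overlapped.

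**Figure D3:**
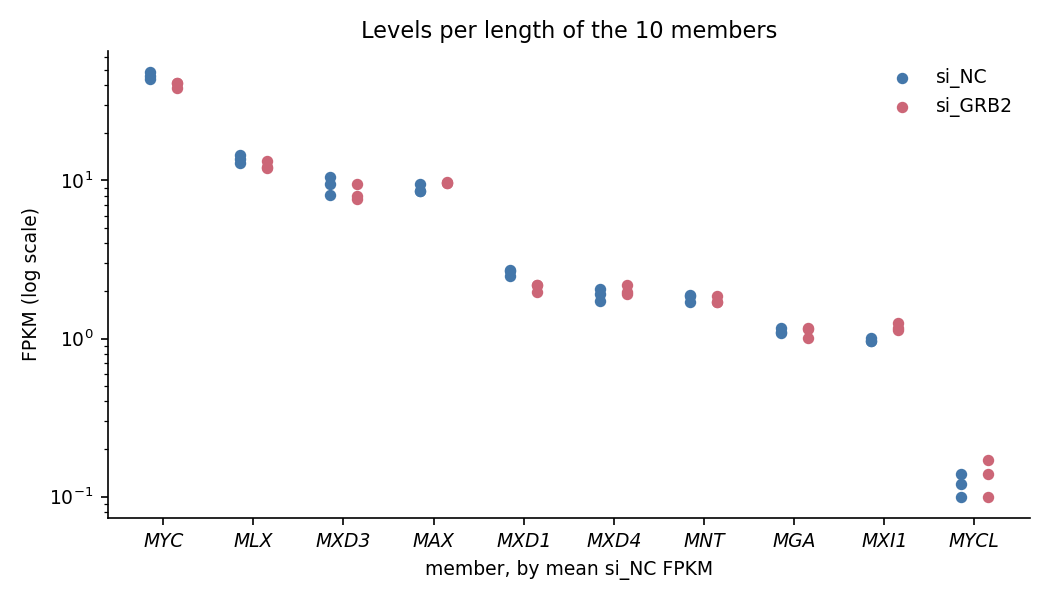
Level per length of each member in the authors' FPKM, on a log axis, with 1 point for each library (si_NC blue, si_GRB2 red) and members ordered by their mean in si_NC. MYC stands above all others at 38.25 to 48.53 FPKM, MLX, MXD3 and MAX lie between 7.6 and 14.5 FPKM, and MYCL is lowest.

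As a description of the balance inside the network, the ratio of MYC to MAX in FPKM was 5.12, 5.31 and 5.11 in the si_NC libraries and 3.92, 4.28 and 4.25 in the si_GRB2 libraries. The ratio was thus lower in all 3 si_GRB2 libraries, as follows from the lower MYC and the slightly higher MAX, which did not itself pass the test. Ratios of other gene pairs were not computed, and among single genes 42.3% had groups without overlap. The part of the genes that overlap MAX in this ratio was not tested. The 6 genes MXD1, MXI1, MXD3, MXD4, MNT and MGA together had 18.8, 17.7 and 16.9 FPKM in si_NC and 17.2, 16.2 and 16.1 FPKM in si_GRB2. Set against MYC, their summed FPKM came to a ratio of 0.429, 0.388 and 0.348 in si_NC and 0.449, 0.392 and 0.392 in si_GRB2, and these ranges overlapped. MXD3 supplied 58.3% to 66.2% of the summed FPKM of MXD1, MXI1, MXD3 and MXD4 in si_NC and 57.6% to 65.3% in si_GRB2. Without MXD3, this sum was 5.34, 5.40 and 5.77 FPKM in si_NC and 5.02, 5.60 and 5.33 FPKM in si_GRB2, and the groups overlapped. The part of the genes that overlap MXD1 and MXD3 in their FPKM, and so in these sums and ratios, was not tested.

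**Figure D4:**
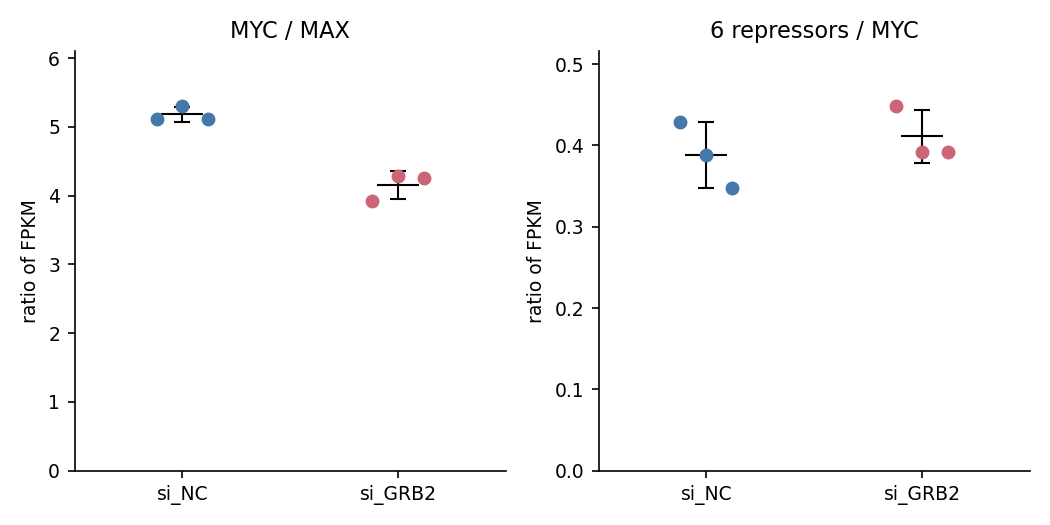
Ratio of MYC to MAX (left) and of the 6 repressors MXD1, MXI1, MXD3, MXD4, MNT and MGA, summed, to MYC (right), from FPKM in each library on axes that start at 0. Points are libraries and the black bar and whiskers are the mean and SD. The MYC to MAX ratio is 5.11 to 5.31 in si_NC and 3.92 to 4.28 in si_GRB2, while the ratios on the right overlap.

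Among the genes whose levels followed MYC most closely were LAMB1, a laminin chain, and CDK2, a cell cycle kinase. Likeness was the root mean square difference between a gene's log2 CPM and that of MYC, each taken from its si_NC mean, over the 6 libraries and 10623 genes with at least 5 CPM. It was 0.0137 for LAMB1 and 0.0150 for CDK2. Their log2 fold changes were −0.22 and −0.23, and these lie near that of MYC because the genes were picked by this likeness.

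Genes around the network were described by lists, whose counts are given against the 15.2% of all genes that were higher and the 15.5% that were lower. Of the partners of MLX, MLXIPL had a log2 fold change of 0.31 and passed the test (edgeR adjusted p = 0.0157), and MLXIP had a log2 fold change of −0.06 (edgeR adjusted p = 0.413). The call of MLXIPL was lost without si_NC replicate 1, without si_NC replicate 2 and without either of si_GRB2 replicates 1 and 3, with log2 fold changes between 0.25 and 0.36 over the libraries left out. Among 6 other leucine zipper factors of the E-box, 2 were higher and 0 lower by edgeR. These were TFEB (log2 fold change 0.42, edgeR adjusted p = 0.000917) and TFE3 (0.28, edgeR adjusted p = 0.000108), regulators of lysosomal genes, while USF1, USF2, MITF and TFAP4 did not pass.

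Of 16 co-activators of MYC, 1 was higher and 3 were lower in si_GRB2, with a median log2 fold change of 0.02. RUVBL1, an ATPase of the TIP60 and INO80 chromatin complexes, had 82.5, 83.2 and 78.0 CPM in si_NC and 59.8, 61.1 and 60.1 CPM in si_GRB2. It fell by 0.43 on the log2 scale (SE 0.04, edgeR adjusted p = 3.66e-07), while its partner RUVBL2 fell by 0.17 (edgeR adjusted p = 0.00248). CDK9, the kinase that releases paused RNA polymerase, rose by 0.25 (edgeR adjusted p = 0.00181). With si_NC replicate 3 or si_GRB2 replicate 3 left out, 2 genes were higher.

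The SIN3 and histone deacetylase complex, the corepressor recruited by the MXD proteins, had 5 genes higher and 3 lower of 16 tested, with a median log2 fold change of 0.04. BRMS1L, a subunit of the complex, fell the most, from 22.3, 23.7 and 21.1 CPM in si_NC to 15.8, 14.3 and 16.9 CPM in si_GRB2 (log2 fold change −0.52, edgeR adjusted p = 2.87e-05). SAP30, another subunit, fell by 0.32 (edgeR adjusted p = 0.00126). The scaffolds SIN3A and SIN3B rose by 0.15 and 0.16 (edgeR adjusted p = 0.0189 and 0.0427), and HDAC1 by 0.16 (edgeR adjusted p = 0.00149). Neither SIN3A nor SIN3B passed with DESeq2 or with limma on FPKM. SIN3A did not pass without si_NC replicates 1 or 3 or si_GRB2 replicates 2 or 3, nor SIN3B without si_NC replicates 1 or 2 or si_GRB2 replicates 2 or 3, and the list had 2 genes higher without si_NC replicate 1, without si_GRB2 replicate 2 and without si_GRB2 replicate 3.

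In the Polycomb complex that holds MGA and MAX (PRC1.6), 4 of 12 genes were higher and 2 lower, with a median log2 fold change of 0.05. YAF2 and RING1, of the ubiquitin ligase core, rose by 0.26 and 0.19 (edgeR adjusted p = 0.00209 and 0.0127), and RING1 did not pass without si_GRB2 replicate 1 (0.12). RNF2, the other catalytic subunit of that core, fell by 0.30 (edgeR adjusted p = 0.00431), and the heterochromatin protein CBX3 by 0.13 (edgeR adjusted p = 0.00111). HDAC1, HDAC2 and WDR5 stand in 2 of these lists each.

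Of 17 genes that control the stability of the MYC protein, 2 were higher and 2 lower. FBXO32, a ubiquitin ligase subunit better known from muscle wasting, rose by 0.25 (edgeR adjusted p = 1.16e-05), and PPP2R5A, a subunit of the phosphatase that acts on MYC, rose by 0.16 (edgeR adjusted p = 0.00106). The ligase subunit SKP2 and the deubiquitinase USP22 had log2 fold changes of −0.12 and −0.11 (edgeR adjusted p = 0.0398 and 0.0397). Neither SKP2 nor USP22 passed with DESeq2, with library totals alone or with limma on FPKM. Across the 6 fits that left out a library, at most 1 gene of the list was still lower, and none was without si_NC replicate 1 or without si_GRB2 replicate 1. FBXW7, the main ligase for MYC, did not pass.

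Of the factors that bind the MYC promoter or mRNA, 9 of 11 were tested, and 1 was higher and 3 lower. FUBP1 and CNBP, which bind single-stranded DNA upstream of MYC, fell by 0.14 each (edgeR adjusted p = 0.00873 and 0.000714). HNRNPD, which binds AU-rich mRNA, was the other gene that fell. IGF2BP3 was called higher from few reads, 10, 8 and 1 in si_NC and 25, 15 and 15 in si_GRB2 (log2 fold change 1.58, SE 0.48, edgeR adjusted p = 0.0201). Leaving out si_NC replicate 3 or si_GRB2 replicate 1 ended its call, and the list had 5 genes lower without si_NC replicate 3.

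Of 36 textbook targets raised by MYC, 35 were tested, and 14 were lower in si_GRB2, 1 was higher and 20 did not pass, with a median log2 fold change of −0.09. The genes that fell included NPM1, NCL, NOP56, NOP58, GNL3 and RRP9, which act in the nucleolus in making ribosomes, and SHMT2, LDHA and CDK4. Their log2 fold changes ran from −0.22 (SHMT2) to −0.09 (LDHA). Other nucleolar genes of the list, such as FBL, NOP16, RRP12, DKC1 and POLR1B, did not pass. TFB2M, a mitochondrial transcription factor, fell the most, from 35.5, 39.6 and 36.4 CPM to 21.0, 21.0 and 22.6 CPM (−0.79, edgeR adjusted p = 2.16e-08). CAD, which starts pyrimidine synthesis, fell by 0.28 (edgeR adjusted p = 0.000267), and ODC1, the first enzyme of polyamine synthesis, fell by 0.18 (edgeR adjusted p = 0.00285). NOLC1, a nucleolar phosphoprotein, rose by 0.39 (edgeR adjusted p = 3.64e-07). The count of lower genes was 8 without si_NC replicate 2, 8 with library totals alone, where 4 were higher, and 2 with limma on log2(FPKM + 1). Median and count are descriptions, and the list was not compared with other lists by a test.

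Promoter windows were matched for 30 of these 36 targets, and 15 of the 30 genes held CACGTG. The motif was present in 5 of the 12 matched genes that fell. Of all 27305 genes with a window, 8.78% held it in at least 1 window. ODC1 is the classical example, and both of its sites are shown with the E-box in capitals, together with those of 2 targets of MLX that are taken up next.
ODC1 (chr2:10448024-10448053, minus strand, motif starting 29 bases before the RefSeq start): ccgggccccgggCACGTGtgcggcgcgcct
ODC1 (chr2:10447990-10448019, minus strand, motif starting within the transcript, just after the RefSeq start): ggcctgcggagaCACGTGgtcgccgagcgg
ARRDC4 (chr15:97960481-97960510, plus strand, motif starting 210 bases before the RefSeq start): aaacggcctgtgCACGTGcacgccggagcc
PFKFB3 (chr10:6202812-6202841, plus strand, motif starting 108 bases before the RefSeq start): caccctcctcccCACGTGgaagggggctgg

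Of 5 glucose-responsive targets of MLX, 1 was higher and 1 lower. TXNIP, an inhibitor of glucose uptake and the best-known target of MLX paired with MLXIP, had 74.9, 74.9 and 70.6 CPM in si_NC and 38.4, 38.5 and 38.5 CPM in si_GRB2. The groups were far apart, with a log2 fold change of −0.93 (SE 0.04, edgeR adjusted p = 9.59e-11), and the change was larger than that of any member of the network. Neither of its 2 promoter windows held an exact CACGTG, and other forms of the site were not searched. ARRDC4, its paralog with the same known regulators and with the E-box shown above, had 5.92, 6.63 and 6.45 CPM in si_NC and 5.36, 7.06 and 6.40 CPM in si_GRB2. These groups overlapped, and the log2 fold change was −0.0099 (SE 0.12, edgeR adjusted p = 0.966), with a sign that turned under library totals and with FPKM. Any link of the motif to the values of TXNIP and ARRDC4 was not tested. PFKFB3, a regulator of glycolysis, rose by 0.21 (edgeR adjusted p = 0.009) and did not pass without si_NC replicate 2 (0.17).

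Of 14 textbook targets lowered by MYC, 13 were tested, and 2 were higher and 6 lower in si_GRB2, with a median log2 fold change of −0.07. The genes that fell were CDKN1A, GADD45A, GADD45B, CCNG2, NDRG2 and CLU. CDKN1A, which encodes the cell cycle inhibitor p21, had 18.5, 16.4 and 16.4 CPM in si_NC and 9.97, 10.5 and 10.6 CPM in si_GRB2 (log2 fold change −0.72, edgeR adjusted p = 1.88e-06). NDRG2 had only 140 reads in all, and its log2 fold change of −0.91 (SE 0.30, edgeR adjusted p = 0.0307) did not pass without si_NC replicate 1, without si_NC replicate 2 or without si_GRB2 replicate 3. CDKN1B, which encodes the inhibitor p27, and the ferritin chain FTH1 rose by 0.18 and 0.10 (edgeR adjusted p = 0.00134 and 0.00381). FTH1 and NPM1 are among the genes with processed pseudogenes. Reads that match a gene and its pseudogene equally have no unique position and were not counted, and the part of this in the values was not tested.

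**Figure D5:**
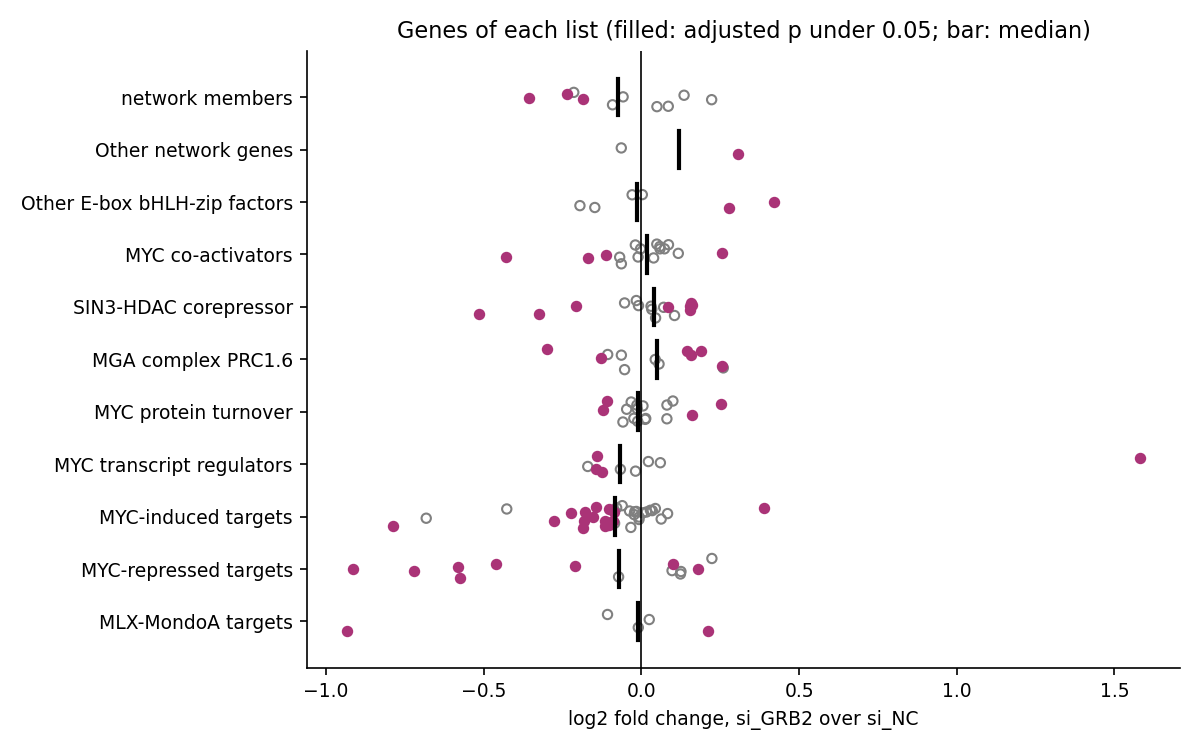
Log2 fold change, si_GRB2 over si_NC, of the network members and of the tested genes of each list, from edgeR. Each circle is a gene, filled circles passed an adjusted p under 0.05, and the black bar is the median of the list. IGF2BP3 is the point at the far right, the MYC-induced targets lie mostly left of 0 with 14 of 35 lower, and TXNIP is the point at the far left of the bottom row.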

How the data were processed

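Bead-captured mRNA was sequenced in 6 strand-specific libraries of SK-BR-3 cells. Reads were trimmed with FASTX-Toolkit and aligned by HISAT2 to GRCh38, and those with a unique position were counted. The authors deposited raw counts for each gene, not normalized, and FPKM rounded to 2 decimals. The counting tool, its strand setting, the annotation release and the FPKM total are not given in the sources used here. Of the gene identifiers, 99.7% were found in GENCODE 44, from which positions and overlaps were taken.

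Genes were filtered by filterByExpr (15801 kept) and scaled by TMM in edgeR 4.0.16 under R 4.3.3, and glmQLFTest compared 3 si_GRB2 with 3 si_NC libraries without covariates, with Benjamini-Hochberg adjustment over all genes kept. "Rose" and "fell" mean an adjusted p under 0.05. CPM use the TMM factors. Standard errors are the log2 fold change divided by the square root of F. Alternatives were DESeq2 1.42.0, other normalizations and filters, a block on replicate number, limma 3.58.1 on log2 FPKM with pseudocounts of 1 and 0.1, and each library left out. On simulated counts for this comparison (15801 genes), edgeR called 83.8% of 68 genes changed by 1.2-fold and 100% of 66 genes changed by 1.5-fold. The changed genes all had a mean above 5 CPM, and every gene was simulated with the same dispersion. These shares therefore do not apply to genes with fewer reads or a wider spread, such as MYCL and MXD3. No deposited pair of replicates agreed within sampling noise. Genes with few reads have wide intervals, and intervals cover the spread of these libraries only.

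The members and lists were chosen with earlier results of these data known. All 10 members are named. In each list, the 2 largest rises and 2 largest falls that passed the test are named, with MYCN, MLXIP, MLXIPL, SIN3A, TXNIP, ARRDC4 and ODC1, and the 3 genes closest to MYC, of which 1 is not reported here. Further genes named in the lists, such as NPM1, HNRNPD, FBXW7, GADD45A and CLU, were chosen after their values were seen.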

Additional observations from a re-analysis of the deposited data

How the results depend on the processing

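MYC and MXD1 passed the test under all 16 alternatives, with log2 fold changes from −0.26 to −0.19 and from −0.39 to −0.22. GRB2 ranged from −2.18 to −2.13 with a library left out. Over the 10 members and all alternatives, 147 of 158 refits kept direction and side of the threshold, 3 lost the call (MLX with FPKM), 6 gained it and 2 turned sign (MXD4, −0.015 without si_NC replicate 2 and up to 0.080 with another library left out, and MYCL, −0.036 without si_GRB2 replicate 3 and up to 0.29 with another library left out). Members with an adjusted p under 0.05 numbered 5, of which 2 were higher (MAX and MXI1), with library totals alone, and 3 to 4 with a library left out, 0 of them higher. With library totals alone, 5180 of all 15801 genes passed, and 3447 of these (66.5%) were higher. Leaving out a library gave 3774 to 4420 genes with an adjusted p under 0.05, 1809 to 2168 higher and 1965 to 2324 lower, and 321 to 420 differentially expressed genes, 92 to 136 higher and 222 to 284 lower. With all libraries these counts were 4838, 2396, 2442, 398, 131 and 267.

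With limma on log2(FPKM + 1), 2633 genes passed, 1008 of them lower, and 95 were differentially expressed, 31 higher and 64 lower. With a pseudocount of 0.1 these counts were 2663, 1023 and 261, 154 of the last lower. With a mean FPKM of at least 1 they were 2709, 998 and 95, 30 higher and 65 lower. The cause was not tested. Genes that lost their call with all of these FPKM fits included RUVBL2, CBX3, FUBP1, CNBP, NPM1, CAD and ODC1. ARRDC4 turned positive with library totals (0.041), with FPKM (0.014 at a pseudocount of 1, with or without the FPKM filter, and 0.020 at 0.1), and with some libraries left out (−0.11 to 0.091). PSMC3IP did so with library totals (0.021), with FPKM (0.013 and 0.015) and with some libraries left out (−0.085 to 0.013).

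Whether the replicate numbers pair the libraries stayed unsettled. Deviations from the group means correlated at 0.23, −0.095 and 0.080 for equal numbers, and not every library correlated best with its own number. With 3 libraries in a group, such correlations cannot exclude a pairing. A block on replicate number gave 4807 genes with an adjusted p under 0.05, and 4 members, since MXD3 (−0.21) then passed with an adjusted p of 0.00146 (edgeR). Among the refits of the list counts, 256 stayed within 1.5 times and 64 did not.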
